A study of Mus musculus with 2 samples.

Results

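CTCF peaks were examined across a stretch of mouse chromosome 7 that holds the H19-Igf2 and Kcnq1 imprinted genes, in embryonic stem (ES) cells and in embryonic fibroblasts (MEFs). The stretch was set by position, not by any measured value, though it was chosen with earlier results of these data known. A peak belonged to it when its midpoint lay between 149.6 and 150.75 Mb of the mm9 build. It held 123 of the 98160 peaks in both lists together, 52 of 44424 in ES cells and 71 of 53736 in MEFs. The study mapped CTCF by chromatin immunoprecipitation and sequencing, with 1 library for each cell type. The ES cells carry the genetic background labelled Bl3.10 and C57BL and the MEFs that labelled C57BL6, and these differences and the library itself cannot be told apart from the cell type. Both were grown in DMEM with fetal calf serum and precipitated with an antibody of the same maker and catalogue entry. The labels name no treatment, sex, passage or embryonic age, and they do not say whether cells of several animals were pooled. There are no replicates, so no difference below has a test. Intervals are 95% Wilson or exact binomial intervals, treat peaks as independent and cover counting error only. The number of reads is unknown.

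CTCF is a zinc-finger protein that binds DNA at insulators and at the feet of chromatin loops. The H19-Igf2 locus is the textbook case. H19, a long non-coding RNA, is made from the maternal copy, and Igf2, a fetal growth factor, from the paternal copy. On the maternal copy CTCF binds the unmethylated control region upstream of H19 and keeps shared enhancers away from Igf2, while DNA methylation of that region on the paternal copy prevents the binding. Ins2, an insulin gene, is the next member beyond Igf2. In the Kcnq1 domain the long non-coding RNA Kcnq1ot1 starts inside Kcnq1, a potassium channel gene, runs antisense to it, and silences neighbours in cis on the paternal copy. Those neighbours include Cdkn1c, which encodes the cell-cycle inhibitor p57, and Phlda2, a restraint on placental growth. A peak list does not separate the parental copies, so no value below speaks to 1 allele.

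The stretch carries 3 marks, set by position like the stretch itself. Genes were placed no more finely than these marks because no mm9 annotation was used here. The H19 mark, which covers the gene and its upstream control region, runs from 149.755 to 149.775 Mb. The Igf2 and Ins2 mark runs from 149.83 to 149.9 Mb, and the Kcnq1 to Phlda2 mark from 150.2 to 150.75 Mb. In the RefSeq gene table, which follows the build GRCm38.p6 and was used for gene order only, the genes between Ins2 and Kcnq1 include Th, Ascl2, Tspan32, Cd81, Tssc4 and Trpm5, in that order, and Slc22a18 lies between Cdkn1c and Phlda2. Some of these may fall inside the Kcnq1 to Phlda2 mark, whose ends were not compared with gene ends.

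The bases under the peaks could not be shown, since no mm9 genome was used here. RefSeq promoter windows (GRCm38.p6, the 250 bases before a gene start) were matched for 3 of the 7 named genes, namely Igf2 with 4 windows, Kcnq1ot1 and Phlda2, and not for H19, Ins2, Kcnq1 and Cdkn1c. They were searched on both strands for AGGNGGC, a short core of the CTCF motif, and 3 of these 6 windows held it, against 25.0% of all 32851 windows. The 3 windows with the core are printed 5′ to 3′ on the gene's strand, with each match in capitals, to show what the core looks like at promoters of genes inside the marks. The matches in a window do not overlap each other. All 3 lie on the minus strand of GRCm38.p6, the first Igf2 window at chr7:142657497-142657746, the second at chr7:142658805-142659054 and the Kcnq1ot1 window at chr7:143296548-143296797. These positions are of another build than the peaks and were not compared with them.
Igf2, first window: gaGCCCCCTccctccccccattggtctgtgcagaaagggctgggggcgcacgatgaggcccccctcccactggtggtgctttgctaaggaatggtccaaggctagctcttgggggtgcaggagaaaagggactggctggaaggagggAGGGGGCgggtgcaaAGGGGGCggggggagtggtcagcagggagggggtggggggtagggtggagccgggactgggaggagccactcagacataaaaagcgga
Igf2, second window: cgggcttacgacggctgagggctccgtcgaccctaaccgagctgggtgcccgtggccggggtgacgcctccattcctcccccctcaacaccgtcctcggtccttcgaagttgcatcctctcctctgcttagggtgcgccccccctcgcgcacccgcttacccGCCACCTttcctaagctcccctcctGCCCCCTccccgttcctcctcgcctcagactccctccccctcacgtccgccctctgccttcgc
Kcnq1ot1: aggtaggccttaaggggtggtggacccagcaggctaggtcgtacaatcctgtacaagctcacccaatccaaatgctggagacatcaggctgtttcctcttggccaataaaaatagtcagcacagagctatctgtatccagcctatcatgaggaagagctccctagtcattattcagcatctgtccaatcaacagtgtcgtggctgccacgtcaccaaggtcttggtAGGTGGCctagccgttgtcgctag
The first Igf2 window held 3 matches, the second 2 and the Kcnq1ot1 window 1. A match is a run of letters and does not say that CTCF binds there.

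The whole stretch held more peaks per Mb than chromosome 7 outside it or the autosomes, in both cell types. It held 45.2 ES peaks and 61.7 MEF peaks per Mb. Chromosome 7 outside it held 18.8 and 20.8 per Mb, and all autosomes together 17.6 and 21.1 per Mb. Cut into 2085 autosomal windows of the same length of 1.15 Mb that held a peak, the genome had a median of 16 ES and 22 MEF peaks per window. Of these windows, 136 held at least as many ES peaks and 30 at least as many MEF peaks. The ratio of MEF to ES peaks in the stretch was 1.37, with an interval of 0.941 to 1.99 that includes equality. Equality is not the value that list length alone would give, since the lists hold 53736 MEF and 44424 ES peaks. With the lowest-scoring MEF peaks left out until both lists were equally long, the stretch held 58 MEF peaks beside its 52 ES peaks. The ratio of 1.37 therefore shows no MEF surplus particular to the stretch.

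Shared peaks are those with at least 1 bp in common with any peak of the other cell type. In the stretch 23 of the 52 ES peaks were shared, 44.2% (95% Wilson interval 31.6 to 57.7), where the background over the whole ES list was 26.1%. Of the 71 MEF peaks 23 were shared, 32.4% (22.7 to 43.9), where the background over the MEF list was 21.6%. Neither share was adjusted for the higher density of peaks in the stretch, and overlaps are met more easily where lists are denser. On the rest of chromosome 7 the shares were 28.9% (ES) and 25.8% (MEF), and the latter lies inside the interval of the stretch. Without the Igf2 and Ins2 interval, a choice made after seeing the data, the ES share came to 38.6% (25.7 to 53.4) and the MEF share to 27.6% (17.8 to 40.2), and both intervals include the background of their list. The ES share depended on the rule. It was 55.8% with midpoints within 1000 bp and 66.7% among the higher-scoring 50% of ES peaks. The MEF share was 42.3% and 47.7% in the same order. Whole-list shares under these rules are not given here, so 26.1% and 21.6% are no background for them. The other 29 ES peaks and 48 MEF peaks have no partner in the sense that no overlapping peak was called, and reads there were not examined.

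Peaks of the stretch stood close together. A close pair means another peak of the same list with its start within 1 kb. In ES cells 21 of 52 peaks were in such pairs, or 40.4%, against 11.9% of the whole list. In MEFs 25 of 71 were, or 35.2%, against 11.3%. These shares were not adjusted for peak density, which was 2.57 (ES) and 2.92 (MEF) times that of the autosomes. Some pairs are calls of 1 list that overlap, and merging such calls left 47 ES and 65 MEF peaks. The run with most peaks lay in the Igf2 and Ins2 interval and is described with that interval.

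The deposited score of a peak is not defined in the labels or files and was used only to rank a peak in its own list, with rank 1 the highest and tied peaks at their mean rank. Ranks are also given as a percentage of the list counted from the top, so that a small percentage is a high rank. The median peak of the stretch stood at 45.2% in ES cells (interval 31.8 to 78.0) and at 30.6% in MEFs (19.3 to 50.5). The medians of the whole lists were 50.2% and 50.5%. The ES interval includes its list median, and the MEF interval just reaches its own. Among the highest 10% of the list were 7 of the 52 ES peaks (13.5%, where the background with ties was 9.96% of the list) and 18 of the 71 MEF peaks (25.4%, where it was also 9.96%). Among the lowest 10%, which by construction holds close to 10% of a list, were 10 of the 52 ES peaks and 7 of the 71 MEF peaks. In ES cells more peaks of the stretch thus stood at the bottom end than at the top. Shared peaks ranked above the others in either list, with medians of 20.4% and 78.0% in ES cells and of 11.7% and 53.3% in MEFs. Over the whole lists the same medians were 40.4% and 53.4% (ES) and 28.6% and 54.2% (MEF). Lists of different lengths and an undefined score mean that a better rank in 1 list shows no change in binding.

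**Figure D1:**
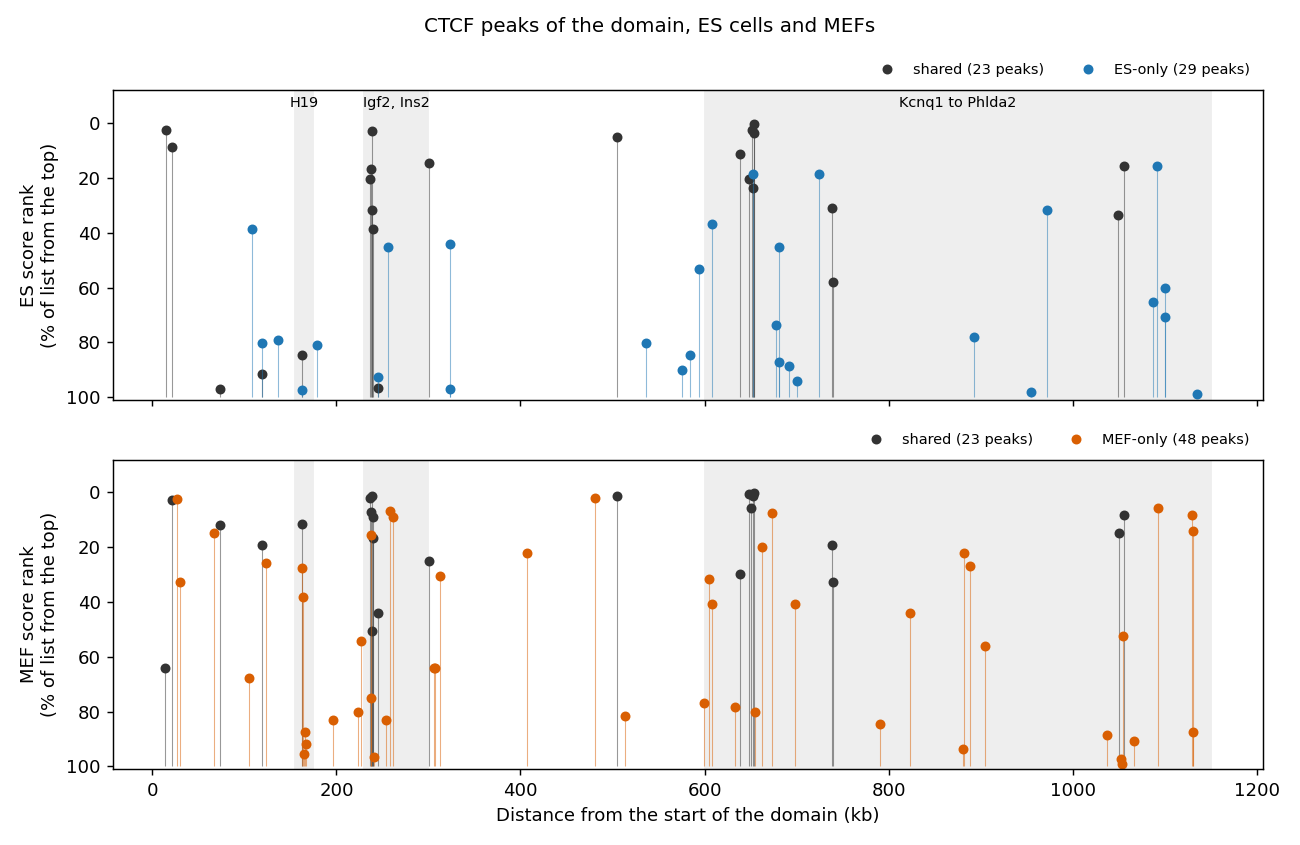
Each point is a CTCF peak of the stretch, placed by its distance in kb from the start of the stretch and by its score rank as a percentage of its own list from the top (0 is the highest rank), for ES cells above and MEFs below. Black points are shared peaks (23 in either list), coloured points the 29 ES-only and 48 MEF-only peaks, and grey bands the 3 marked intervals; the ES peaks in the H19 band sit low and the highest points of both lists stand together near the left edge of the Kcnq1 to Phlda2 band.

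Overlapping ES and MEF peaks, 25 pairs in all, differed in start by a median of 93 bp (3 to 345 bp). Outside the Igf2 and Ins2 interval the median was 34 bp over 17 pairs, and 12 of these 17 were within 100 bp. Over the whole lists, taking each shared ES peak with only its nearest MEF peak, the median was 45 bp. The 25 pairs also count second overlaps of a peak, so 93 bp does not show that sites here are unusually offset. Joining all peaks that overlap gave 90 separate sites, of which 21 held peaks of both lists, 25 only ES peaks and 44 only MEF peaks. Sites were not joined over the whole lists, so these counts have no background and only describe the stretch. By interval the shared sites numbered 4 before the H19 mark, 1 in it, none between H19 and Igf2, 5 in the Igf2 and Ins2 mark, 2 between Ins2 and Kcnq1 and 9 in the Kcnq1 to Phlda2 mark. Counted as peaks, the share of each interval other than Igf2 and Ins2 was not set apart from its list background. There the Wilson intervals included 26.1% (ES) and 21.6% (MEF).

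**Figure D2:**
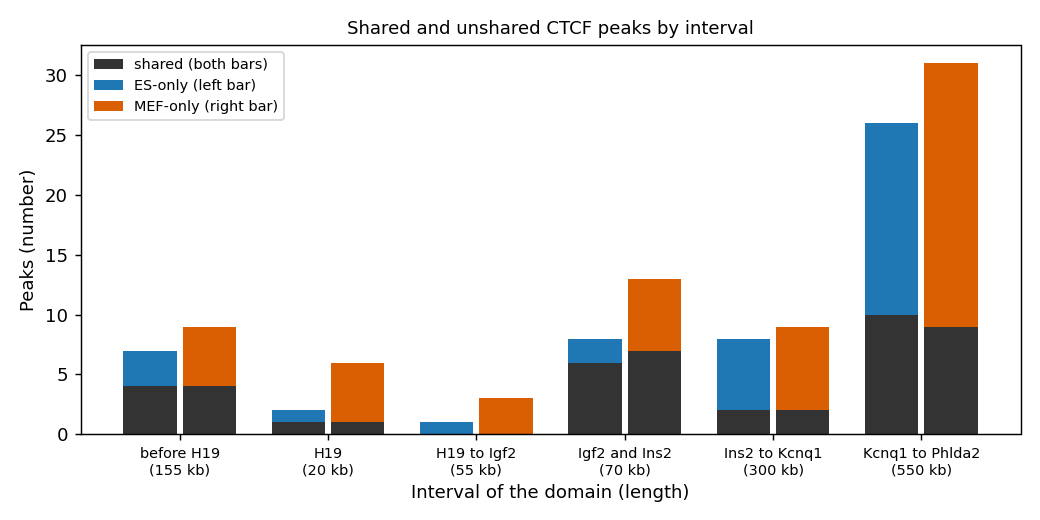
Bars give the number of peaks in each interval of the stretch, with the interval's length in kb under its name, for ES cells (left bar) and MEFs (right bar). The black part counts shared peaks, which reach 6 of 8 (ES) and 7 of 13 (MEF) in the Igf2 and Ins2 interval and 0 of 1 and 0 of 3 between H19 and Igf2. The backgrounds over the whole lists are 26.1% (ES) and 21.6% (MEF).

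Inside the H19 interval the MEF calls reached farther toward Igf2 than the ES calls, but only through 3 low-ranked MEF peaks. These 3 dropped out when the MEF list was cut to the ES length. The 20 kb interval held 2 ES peaks and 6 MEF peaks, a MEF to ES ratio of 3 with an interval of 0.536 to 30.4 that includes equality, and 1 of each was shared. The shared ES and MEF peaks numbered 2 and 2 with midpoints within 500 bp, 2 and 3 within 1000 bp, and 0 when only the higher-scoring 50% of the ES list was kept. The shared site lay at 149762935 to 149763333 in ES cells and at 149762961 to 149763359 in MEFs, 26 bp apart. It ranked 37602.5 in the ES list (84.6% from the top) and 6268 in the MEF list (11.7%). This was the highest MEF rank of the interval and a low ES rank.

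Beside the shared site lay calls that did not overlap across the lists. The other ES peak, at 149762493 to 149762891, ranked 43269.5 (97.4%). MEF peaks at 149761998 to 149762396 and at 149763648 to 149764046 ranked 14835.5 (27.6%) and 20427.5 (38.0%). These 3 and the shared site made up a run of 5 peaks within 2.05 kb. The MEF peaks of the run therefore stood in the higher-scoring part of their list and the ES peaks near the end of theirs.

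Beyond this run, toward Igf2, the interval held MEF peaks only. They lay at 149764740 to 149765138, 149766003 to 149766401 and 149767232 to 149767630. Their ranks were 51228 (95.3%), 46884.5 (87.2%) and 49360 (91.9%), all in the lower part of the MEF list. As background, the control region lies upstream of H19, on the side of Igf2. Whether these peaks fall inside it was not analysed. No ES peak was called from the end of the shared site to 149778562, a peak outside the mark. These 3 peaks also hang on the length of the list: when only as many MEF peaks as ES peaks were kept, highest scores first, exactly these 3 of the 6 MEF peaks of the interval dropped out.

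Between the H19 mark and the Igf2 and Ins2 mark no site was shared. The 55 kb held 1 ES peak and 3 MEF peaks. With so few peaks the Wilson intervals of the shares ran from 0 to 79.3% (ES) and from 0 to 56.1% (MEF). Both include the list backgrounds of 26.1% and 21.6%, so no lack of shared sites is shown. The ES peak at 149778562 to 149778960 ranked 36014.5 (81.1%) and lay 11.3 kb from the nearest MEF peak. The MEF peaks lay at 149796498 to 149796896, 149823055 to 149823453 and 149826574 to 149826972, with ranks of 44579.5 (83.0%), 42977.5 (79.98%) and 29146 (54.2%). None of the 4 reached the higher-scoring 50% of its list.

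The Igf2 and Ins2 interval carried the run with most peaks in the stretch, and most calls of that run overlapped a call of the other list. The Igf2 and Ins2 interval of 70 kb held 8 ES peaks, of which 6 were shared, and 13 MEF peaks, of which 7 were shared. The shares were 75.0% (ES) and 53.8% (MEF), where the list backgrounds were 26.1% and 21.6%, with no adjustment for peak density. A run from 149836467 to 149840904 held 14 of these 21 peaks within 4.44 kb, 5 of them ES and 9 MEF. All 5 ES peaks and 6 of the 9 MEF peaks of the run were shared. MEF calls cover much of the run, so an ES call there easily overlaps a MEF call, and common binding places are not shown. Peaks of 1 list overlapped each other there, so they are not 14 separate binding places.

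Within the run the order of ranks differed between the cell types. The highest ES peak was the 1 at 149838857 to 149839255, with rank 1326 (2.98%). Its MEF partner at 149838657 to 149839055 ranked 27152.5 (50.5%). The highest MEF peak lay at 149838000 to 149838398, with rank 780.5 (1.45%), and its ES partner at 149838131 to 149838529 ranked 14117.5 (31.8%). The top call of each list in the run thus overlapped a lower-ranked call of the other. These partners started 200 and 131 bp apart in the same order, so they may not be the same binding place.

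At the left end of the run ES peaks at 149836467 to 149836865 and 149836930 to 149837328 ranked 9083 (20.4%) and 7507 (16.9%). The MEF peaks over them, at 149836585 to 149836983 and 149836894 to 149837292, ranked 1132.5 (2.11%) and 3899 (7.26%). At the right end 1 ES peak at 149839411 to 149839809, rank 17134.5 (38.6%), overlapped 2 MEF peaks at 149839276 to 149839674 and 149839669 to 149840067, ranks 8963.5 (16.7%) and 4713.5 (8.77%). All of these calls were in the higher-scoring 50% of their lists. The 3 MEF-only peaks of the run filled gaps between them or lay at its end: 149837336 to 149837734 at rank 40293 (75.0%), 149837626 to 149838024 at rank 8418 (15.7%) and 149840506 to 149840904 at rank 51951.5 (96.7%).

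The rest of the Igf2 and Ins2 interval held 1 shared site, low in the ES list and midway in the MEF list, and scattered calls. That site lay at 149844725 to 149845123 in ES cells, rank 42860 (96.5%), and at 149844547 to 149844945 in MEFs, rank 23587.5 (43.9%). An ES-only peak at 149845064 to 149845462, rank 41193 (92.7%), overlapped the ES peak of this site. Farther on, the ES-only peak at 149855821 to 149856219 ranked 20065 (45.2%). MEF-only peaks lay on either side of it, at 149853809 to 149854207 with rank 44579.5 (83.0%), at 149858020 to 149858418 with rank 3688.5 (6.86%) and at 149861578 to 149861976 with rank 4836. The last 2 were among the highest 10% of the MEF list although no ES peak overlapped them. No peak of either list lay between there and the end of the mark at 149.9 Mb.

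**Figure D3:**
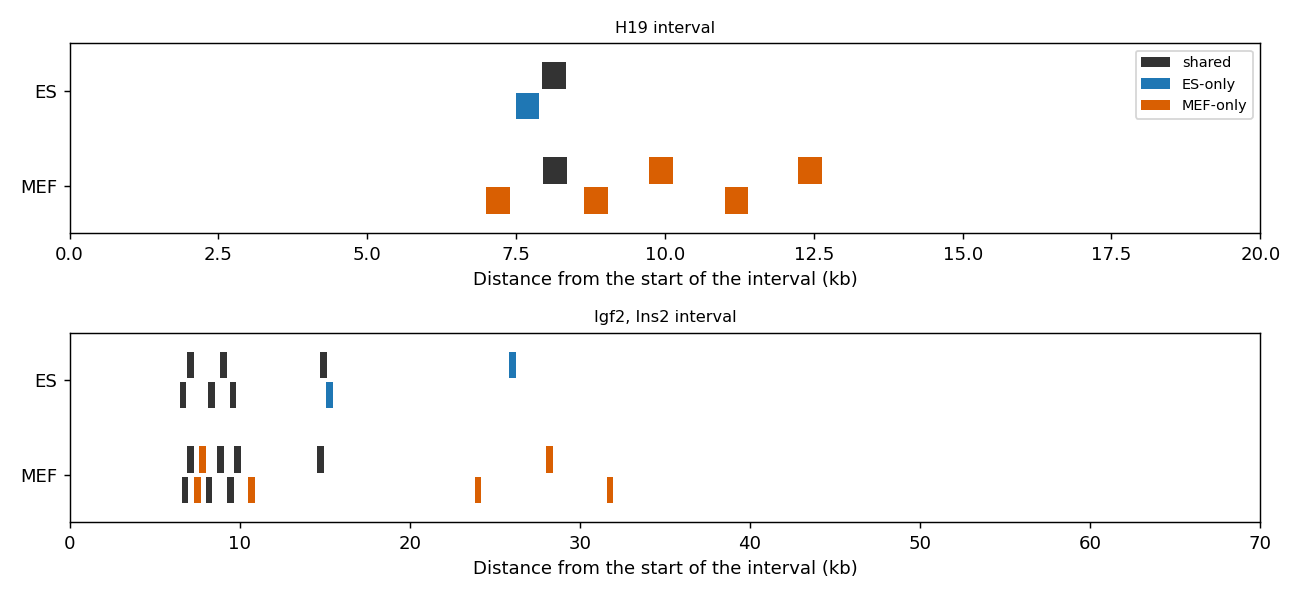
Boxes are CTCF peaks drawn to scale in the H19 interval (20 kb, above) and the Igf2 and Ins2 interval (70 kb, below), by distance in kb from the start of the interval, with ES and MEF peaks in separate rows and neighbouring peaks set at 2 heights for legibility only. Black boxes are shared; the 3 MEF-only boxes farthest right in the H19 panel have no ES box near them, and the run at the left of the lower panel holds 5 ES and 9 MEF peaks.

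Before the H19 mark, on the side away from Igf2, the 155 kb held 7 ES and 9 MEF peaks, and 4 of each were shared. In 3 of these shared sites the ranks were far apart. The site at 149614094 to 149614492 ranked 1164.5 in ES cells (2.62%), while its MEF partner 13 bp away, at 149614081 to 149614479, ranked 34363.5 (63.9%). By contrast, the sites at 149673219 to 149673617 and 149718783 to 149719181 ranked 43067.5 (96.9%) and 40627.5 (91.5%) in ES cells. Their MEF partners at 149673087 to 149673485 and 149718817 to 149719215 ranked 6447 (12.0%) and 10382.5 (19.3%). Only the site at 149621254 to 149621652 in ES cells, rank 3916 (8.82%), and at 149621492 to 149621890 in MEFs, rank 1537 (2.86%), was in the highest 10% of both lists.

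The unshared calls of that part were of mixed rank. Among them was the MEF-only peak at 149626456 to 149626854, with rank 1240 (2.31%), the second highest MEF-only peak of the stretch, 5.20 kb from the nearest ES peak. The other 4 MEF-only peaks ranked between 14.7% and 67.6% from the top. ES-only peaks at 149708274 to 149708672, 149719479 to 149719877 and 149736656 to 149737054 stood at 38.6%, 80.1% and 79.0%.

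Between the Ins2 and Kcnq1 marks 2 sites were shared, and peaks stood less densely than over the stretch as a whole. Genes known to lie between Ins2 and Kcnq1 are Th, which encodes tyrosine hydroxylase, and Ascl2, a transcription factor gene of the trophoblast. The 300 kb held 8 ES and 9 MEF peaks, or 26.7 and 30.0 per Mb. The first shared site lay just past the Igf2 and Ins2 mark, at 149900589 to 149900987 in ES cells, rank 6520 (14.7%), and 15 bp away at 149900604 to 149901002 in MEFs, rank 13394 (24.9%). The second, at 150105082 to 150105480 in ES cells and 150105114 to 150105512 in MEFs, ranked 2169.5 (4.88%) and 595.5 (1.11%). It was thus among the highest 10% in both cell types.

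The highest MEF-only peak of the whole stretch was in the same part. It lay at 150080563 to 150080961, ranked 1029 (1.91%) and was 24.5 kb from the nearest ES peak. Another MEF-only peak, at 150007283 to 150007681 with rank 11813 (22.0%), was the farthest from any ES peak, at 83.6 kb. It fell inside the widest gap between ES peaks, 181 kb from the start at 149923705 to that at 150105082. The other 5 MEF-only peaks ranked from 30.6% to 81.5%. The 6 ES-only peaks were of middle or low rank, from 44.2% to 96.9%, and 5 of them were more than 10 kb from a MEF peak.

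The Kcnq1 to Phlda2 interval held the highest-ranked site of the stretch in both cell types. Over its 550 kb there were 26 ES peaks, 10 of them shared, and 31 MEF peaks, 9 of them shared. The shares were 38.5% (22.4 to 57.5) in ES cells and 29.0% (16.1 to 46.6) in MEFs. Both intervals include the list backgrounds of 26.1% and 21.6%, so the layout of shared sites below is description only. At the head of the interval by rank stood an ES peak at 150253430 to 150253828, rank 85 (0.191%), over a MEF peak at 150253317 to 150253715, rank 89 (0.166%). The same MEF peak also overlapped an ES peak at 150253056 to 150253454, rank 1619 (3.64%). No other site of the stretch came so high in either list.

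That site ended a row of shared sites near the start of the interval. The first, 150238581 to 150238979 in ES cells with rank 5012 (11.3%), had its MEF partner at 150238606 to 150239004 with rank 15891.5 (29.6%). The next lay at 150248286 to 150248684 with ES rank 9083 (20.4%) and at 150248257 to 150248655 with MEF rank 354.5 (0.660%). It was the second highest MEF peak of the stretch. Then followed 150250936 to 150251334 with ES rank 1182 (2.66%) over 150250843 to 150251241 with MEF rank 3107 (5.78%). After it came 150252377 to 150252775 with ES rank 10514 (23.7%) over 150252422 to 150252820 with MEF rank 730.5 (1.36%). Every MEF partner in this row except the first was in the highest 10% of its list. An ES-only peak at 150251997 to 150252395, rank 8233.5 (18.5%), lay 425 bp from the nearest MEF peak.

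Farther in, shared sites came as 2 groups of 2 with few calls between them. The first group lay at 150338174 to 150338572, ES rank 13778.5 (31.0%), and 150339660 to 150340058, ES rank 25711.5 (57.9%). In MEFs these were at 150338201 to 150338599, rank 10382.5 (19.3%), and 150339695 to 150340093, rank 17649.5 (32.8%). The second group lay at 150649617 to 150650015, ES rank 14834 (33.4%), and 150655834 to 150656232, ES rank 6867 (15.5%). Its MEF partners at 150649867 to 150650265 and 150655831 to 150656229 ranked 7908 (14.7%) and 4474.5 (8.33%). The last of these partners differed by 3 bp, the closest match of the stretch. All 4 sites had the better rank percentage in MEFs.

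The middle of the interval, between those groups, had no shared site. No ES peak started after 150339660 until 150492202, a gap of 153 kb that was the second widest of the ES list in the stretch. MEF peaks were called inside it. They lay at 150390416 to 150390814 with rank 45401 (84.5%), at 150423293 to 150423691 with rank 23587.5 (43.9%), at 150481222 to 150481620 with rank 50396.5 (93.8%), at 150482149 to 150482547 with rank 11813 (22.0%) and at 150487874 to 150488272 with rank 14355 (26.7%). In turn the widest gap of the MEF list, 133 kb from 150504756 to 150637302, held ES-only peaks at 150554218 to 150554616, rank 43635 (98.2%), and at 150571768 to 150572166, rank 14117.5 (31.8%). The latter was 65.5 kb from the nearest MEF peak, the farthest of any ES-only peak of the stretch.

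Counted in bins of 50 kb, 3 of the 11 bins had no ES peak, 1 had no MEF peak and none lacked both. Shared ES peaks fell in 5 bins, the first 3 and the 2 from 150.6 to 150.7 Mb. The bin from 150.25 to 150.3 Mb held most ES peaks, 9 against 7 in MEFs. That from 150.65 to 150.7 Mb held 3 ES and 7 MEF peaks. The shared site at 150649617 straddles a bin border, so its ES peak and its MEF peak count in neighbouring bins.

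**Figure D4:**
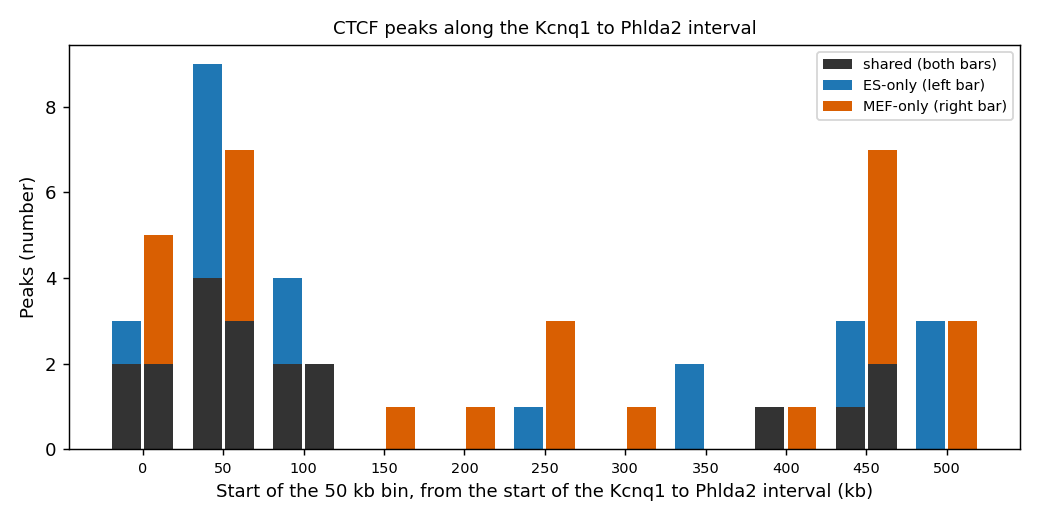
Bars count peaks in bins of 50 kb along the Kcnq1 to Phlda2 interval, labelled by the distance of the bin's start from the start of the interval in kb, for ES cells (left bar) and MEFs (right bar). Black parts are shared peaks; they stand in the first 3 bins and near the far end, and the bins between hold only unshared calls, at most 3 MEF peaks and 2 ES peaks in a bin.

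Toward the far end of the interval lay high-ranked calls without a partner. The highest ES-only peak of the stretch, at 150691787 to 150692185 with rank 7026 (15.8%), lay 788 bp from the third highest MEF-only peak, at 150692575 to 150692973 with rank 3029.5 (5.64%). These 2 calls would count as shared with midpoints within 1000 bp. ES-only peaks tied for the next place were those at 150251997, given above, and at 150324685 to 150325083 with the same rank of 8233.5 (18.5%), the latter 13.5 kb from a MEF peak. Last in the stretch came a run of 3 MEF-only peaks from 150729777 to 150731070, at ranks 4353 (8.10%), 7475.5 (13.9%) and 46884.5 (87.2%). The nearest ES peak to this run, at 150734660 to 150735058, was the lowest-ranked ES peak of the stretch, at 43954 (98.9%).

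The unshared peaks not named singly in the Kcnq1 to Phlda2 interval numbered more in the lower than in the upper part of the ES list and were spread widely over the MEF list. With the ES peak at 150207674 counted among them, those of the ES list stood between 36.8% and 93.9% from the top, and those of the MEF list between 7.46% and 99.0%.

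Across the stretch, ranks of overlapping peaks went together only loosely. Over the 25 overlapping pairs Spearman's rho between the rank percentages was 0.26, and over the 17 pairs outside the Igf2 and Ins2 interval it was 0.34. These are descriptions: pairs share 2 libraries and lie near each other, and some share a peak. No rho over the whole lists is given here, so the loose agreement is not shown to be particular to the stretch. In 20 of the 25 pairs the MEF peak had the better rank percentage. Taking each shared ES peak with its nearest MEF peak, this was so for 18 of 23 in the stretch (78.3%) and for 57.5% of 11595 over the whole genome. The 5 exceptions were the sites at 149614094, 149838857, 149900589, 150238581 and 150250936, by their ES starts.

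**Figure D5:**
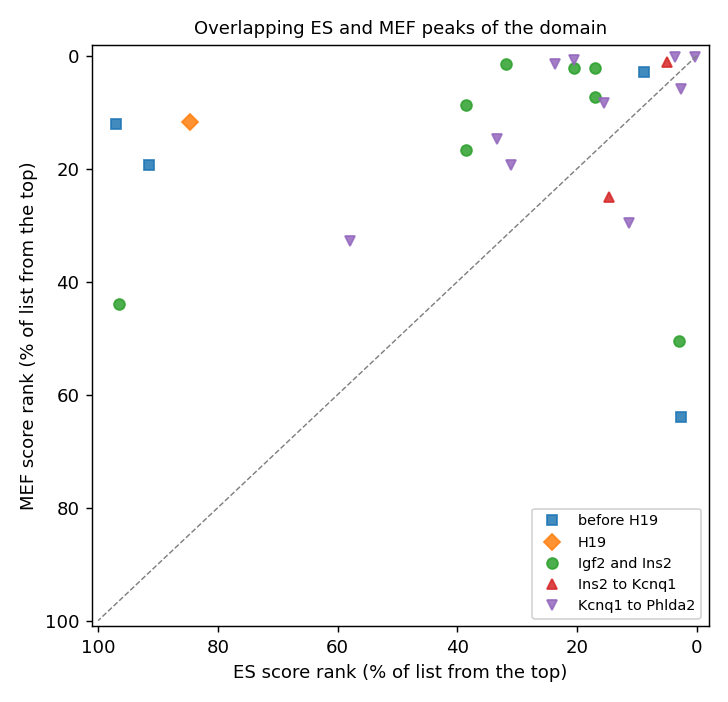
Each point is an ES peak and a MEF peak of the stretch that overlap, placed by the score rank of each as a percentage of its own list from the top (0 is the highest rank; both axes run toward it), with a symbol for each interval and a dashed line of equal percentages. Of the 25 points 20 lie above the line, where the MEF percentage is better, and the point nearest the upper right corner is the site at ranks 85 and 89 in the Kcnq1 to Phlda2 interval.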

How the data were processed

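CTCF chromatin immunoprecipitation libraries of ES cells and MEFs, 1 each, were compared. The authors deposited 1 peak list per library, with a whole-number score per peak which labels and files leave undefined. The build mm9 is named in the submitters' processing notes. Not given in the sources used here are the aligner, peak caller, threshold and control. Each deposited peak spans 399 bp as BED, and 1 was added to starts for printing. Scores were ranked within each list. Shared peaks had at least 1 bp in common with a peak of the other cell type. Overlaps were computed from starts, checked with bedtools 2.31.1 and tested on simulated data with planted partners. Distances run from start to start. Ratios of peak numbers carry exact (Clopper-Pearson) intervals. Depth is unknown, and no test was possible with 1 library per group. The stretch, its marks and the lists were chosen with earlier results of these data known. Described singly are all peaks in the H19 and the Igf2 and Ins2 marks, all shared sites and the 3 highest-ranked unshared peaks of each list; other peaks named singly were chosen after their values were seen. Alternatives were other overlap rules, score cuts, merged peaks, membership by overlap and other ranks. Analyses used matplotlib 3.10.9, scipy 1.17.1, pandas 2.3.3 and numpy 2.4.6 under Python 3.11.15.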

Additional observations from a re-analysis of the deposited data

How the results depend on the processing

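Alternatives gave 97 values. The counting interval (for numbers of peaks, a factor of 1.5) held 85 of them, and 12 fell outside. This tally is no measure of robustness. Shared counts between H19 and Igf2 stayed at 0 throughout, while keeping 50% of a list is bound to lower its number of peaks. Keeping only the higher-scoring 50% of a list left 27 ES and 44 MEF peaks in the stretch, of which 66.7% and 47.7% were shared, and 0 shared ES peaks in the H19 interval and 2 before it. Against the higher-scoring 50% of the ES list, shared MEF peaks numbered 0 in the H19 interval and 2 before it. In the H19 interval, midpoints within 500 bp gave 2 shared ES and 2 shared MEF peaks, and midpoints within 1000 bp gave 2 and 3. The lowest and highest shared percentages under the other alternatives were 36.5% and 55.8% (ES) and 25.4% and 42.3% (MEF). Whole-list shares under the alternatives are not given here, so these percentages have no background beside them. Cutting the MEF list to the ES length does not alter the ES list, so it gave no value for the number of ES peaks. No paired analysis was possible because there is only 1 library of either kind. How sequencing depth bears on the numbers of peaks was not tested, as it is not known.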

Other observations

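Several unshared calls lay beside a call of the other list. Of the 29 ES-only peaks of the stretch, 6 had a MEF peak with its start within 1 kb, and of the 48 MEF-only peaks 7 had such an ES peak. Over the whole lists this was so for 7.17% of ES-only and 5.77% of MEF-only peaks. The higher density of peaks in the stretch was not adjusted for here either. At the start of the Kcnq1 to Phlda2 interval an ES-only peak at 150207674 to 150208072, rank 16343 (36.8%), and a MEF-only peak at 150208224 to 150208622, rank 21947 (40.8%), lay 550 bp apart. The values that set such neighbours apart from overlapping peaks were not tested.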
